A study of Homo sapiens with 2 samples.

Results

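The EGR, NR4A and IER genes, together with the gene of serum response factor (SRF), were followed in PC-3 cells exposed to riccardin D (RD). The members were chosen as the probe sets whose only gene in the platform annotation is EGR1, EGR2, EGR3, NR4A1, NR4A2, NR4A3, IER2, IER3, IER5 or SRF. This gave 18 of the 41091 single-gene probe sets and 9 of the 19775 named genes. EGR2 was the only member without a probe set under this rule, and its level was not analysed here.

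PC-3 is an established human prostate cancer cell line whose growth does not need androgen. RD is a plant compound of the macrocyclic bisbibenzyl class, isolated from a liverwort. Cells were grown in RPMI medium with fetal bovine serum and exposed for 24 h to 10 µmol/L RD, a dose that the study's supplement gives and the sample labels do not. Control cells received the DMSO vehicle according to the treatment protocol, although their source name reads as cells without treatment. Total RNA of each condition was hybridised to 1 Affymetrix HG-U133 Plus 2.0 array, on which each transcript is read by 1 or more probe sets of short oligonucleotides.

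Immediate early genes are transcribed within minutes of a stimulus from factors that the cell already holds, and their mRNAs are short-lived. SRF sits at the CArG boxes of many of them and is switched on by the ternary complex factors (ELK1, ELK3, ELK4), which answer to ERK signalling, or by the myocardin-related factors, which answer to actin. CREB, which binds the cAMP response element, is a further classical input. EGR1 to EGR3 encode zinc finger factors that bind GC-rich sites and are held back by the corepressors NAB1 and NAB2, NR4A1 to NR4A3 encode orphan nuclear receptors, and the IER genes encode small proteins with no shared DNA-binding domain.

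Each value is a MAS5 signal, that is, a linear brightness corrected for background and mismatch probes. Both arrays had been scaled alike, with means of 495.8 (control) and 495.9 (RD) once 2% of probe sets was trimmed at each end. The median signal over both arrays, 66.9, is called the floor here. To be counted as higher or lower in RD, a gene needed a 2-fold difference or more in its brightest probe set (by mean log2 signal) and a signal that reached the floor on at least 1 array. If only 1 of the pair reached the floor, the fold is a lower bound, computed against the floor and written as at least N-fold. The direction is then fixed by that filter. With 1 array per condition no test of the treatment could be made, and any other difference between the cultures cannot be told apart from RD. As an error, the scatter of log2 differences among the probe sets of 1 gene was measured as an SD. It was 0.76 over probe sets at or above the floor and 0.34 over those at or above 377.4, the 75th percentile, and it leaves out the spread between cultures. The keratin gene KRT18 was bright on both arrays (10224.2 and 15416.6) and KRT8 reached 113.8 and 159.3, whereas the 3 other epithelial markers looked up (KRT19, EPCAM and CDH1) were under the floor on both. Of the 3 named prostate luminal markers KLK3 alone passed the floor, at 131.4 and 230.6. Of 6 named blood, endothelial and muscle markers 3 passed it (PECAM1, HBB and DES) with signals of at most 121.6, and the summed signal of the 6 was 326.6 in control and 252 in RD.

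The promoters of 3 members are shown because they carry CArG boxes or the core of the cAMP response element, in genes that behaved differently on the arrays. Each window runs from 250 bases before to 50 bases after a gene start of RefSeq (GRCh38.p14), on the plus strand, 5′ to 3′. Capitals mark CArG boxes (CC, 6 bases that are each A or T, then GG) and the core TGACG of the cAMP response element, which reads CGTCA on the other strand.
EGR1, chr5:138465229-138465528: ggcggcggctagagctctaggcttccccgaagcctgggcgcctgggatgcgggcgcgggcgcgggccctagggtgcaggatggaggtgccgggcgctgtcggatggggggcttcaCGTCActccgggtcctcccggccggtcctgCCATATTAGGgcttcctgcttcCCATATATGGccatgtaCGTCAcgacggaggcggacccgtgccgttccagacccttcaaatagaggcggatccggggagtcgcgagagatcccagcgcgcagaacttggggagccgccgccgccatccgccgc
NR4A3, chr9:99821635-99821934: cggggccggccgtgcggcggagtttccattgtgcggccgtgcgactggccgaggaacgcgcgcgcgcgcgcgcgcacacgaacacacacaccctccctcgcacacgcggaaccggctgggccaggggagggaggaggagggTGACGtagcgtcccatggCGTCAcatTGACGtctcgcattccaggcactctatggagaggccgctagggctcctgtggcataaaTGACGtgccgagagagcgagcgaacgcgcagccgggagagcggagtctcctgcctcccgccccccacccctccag
SRF, chr6:43171019-43171318: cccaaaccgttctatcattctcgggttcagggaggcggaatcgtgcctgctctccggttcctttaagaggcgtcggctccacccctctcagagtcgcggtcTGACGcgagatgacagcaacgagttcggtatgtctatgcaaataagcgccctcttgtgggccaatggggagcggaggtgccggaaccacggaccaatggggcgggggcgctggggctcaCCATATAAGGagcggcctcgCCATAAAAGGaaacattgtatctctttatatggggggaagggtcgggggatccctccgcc

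EGR1 and SRF each held 2 CArG boxes in this window. Those of EGR1 began 105 and 83 bases before the start and those of SRF 30 and 10 bases before it. NR4A3 held no CArG box but 4 cores of the cAMP response element, of which the farthest began 109 bases before the start. EGR1 held 2 such cores and SRF held 1. Windows were at hand for 7 of the 10 genes, 11 windows in all, since some genes have several starts. A CArG box lay in 3 of them, namely EGR1, the first start of SRF and the last listed start of EGR2, and a core of the cAMP response element lay in 5. Of all 35116 windows of the same length, 1.29% held a CArG box and 24.6% held that core on either strand. The full cAMP response element TGACGTCA was in no member window and in 1.85% of all windows. The EGR site was searched on both strands in the forms GCGTGGGCG and GCGGGGGCG, which 0.795% and 5.07% of all windows held. The first was in no member window and the second was in that of SRF alone. No matches overlapped in the member windows. The windows of NR4A1 and IER5 held none of these letters, and IER2 held 1 core of the cAMP response element.

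**Figure D1:**
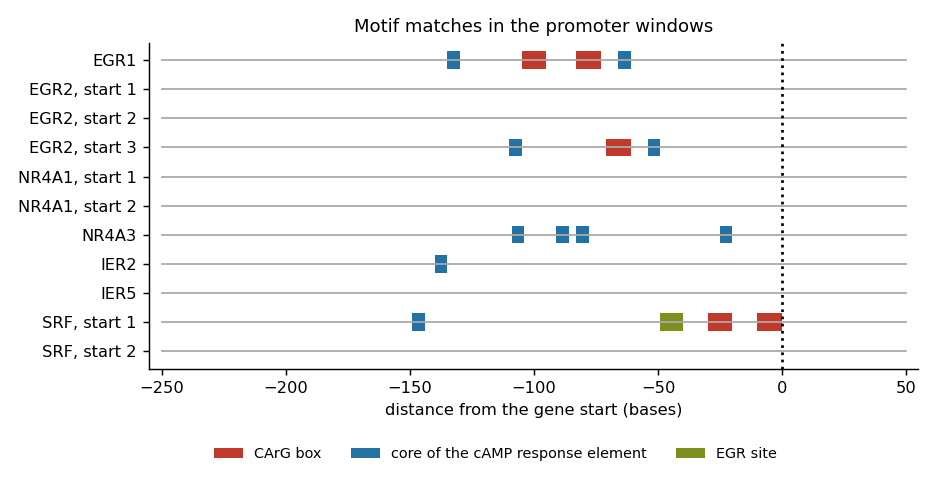
Positions of motif matches (coloured blocks) in the 11 promoter windows of 7 genes, with distance from the RefSeq gene start in bases on the horizontal axis and the start as a dotted line. EGR1 and the first start of SRF have 2 CArG boxes each, and NR4A3 has 4 cores of the cAMP response element.

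EGR1 was the one member counted as higher, and each of its 3 probe sets was more than 2-fold higher in RD-treated cells. The brightest of them (227404_s_at) read 4760.5 in control and 17098.4 in RD, a 3.59-fold difference. The signal of 201694_s_at was 1185.3 in control and 2743.4 in RD, which is 2.31-fold higher, and that of 201693_s_at was 309.2 and 1589.3, which is 5.14-fold higher. Every EGR1 signal lay well above the floor. In bulk RNA such as this, more cells with the transcript and more transcript per cell cannot be told apart. The log2 differences averaged 1.81 ± 0.58 (SD, n = 3 probe sets of the same 2 RNA samples), so the direction was shared and the size was not. The log2 difference of the brightest probe set, 1.85, was 5.4 times the SD of 0.34 between bright probe sets of a gene. That SD leaves out the spread between cultures, so the multiple is no measure of the effect of RD. As deposited, the log2 difference was larger in 494 (3.85%) of the 12818 genes that reached the floor. These 12818 include genes with 1 signal under the floor, whose deposited difference is not a measured fold. The names of all EGR1 probe sets carry the suffix _s_at, by which Affymetrix marks probes shared between transcripts.

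EGR3, whose product acts in muscle spindle and lymphocyte development, was dim on both arrays. Its only probe set read 2.3 in control and 42.4 in RD, and since both lay under the floor no fold is given.

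The NR4A receptors, which act without a known hormone ligand, differed among themselves. NR4A2 (Nurr1) was bright and nearly equal on both arrays by all of its probe sets. The signals were 2291.6 and 2305.2 for 204622_x_at, 1999.1 and 2051.9 for 216248_s_at, and 1628.2 and 1573.9 for 204621_s_at, each in the order control and RD. The log2 differences lay between -0.05 and 0.04 with an SD of 0.04 (n = 3 probe sets), far less than the SD of 0.34 between bright probe sets in general. All 3 probe sets carry the suffix _s_at or _x_at, which mark probes shared between transcripts or possibly matching other sequences.

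NR4A3 (NOR1) passed from under the floor to above it by 2 of its 3 probe sets. The signal of 207978_s_at was 11.1 in control and 169.8 in RD, which is at least 2.54-fold higher. That of 209959_at was 10.3 and 111, which is at least 1.66-fold higher. The probe set 216979_at read 43 and 56.3 and stayed under the floor on both arrays. The last of these has the highest mean log2 signal and stood for the gene under the rule, so that NR4A3 was not counted. The other 2 probe sets reached the floor on the RD array only, so their higher RD signal follows from that filter. Of the 12818 genes at the floor by their brightest probe set, 7.89% had a control signal under it and an RD signal at or above it. NR4A3 is not among those genes, and the share over probe sets was not computed.

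NR4A1 (Nur77) gave no common direction. Its brightest probe set (202340_x_at) fell short of 2-fold with signals of 162.2 in control and 109.8 in RD, a ratio of 0.677. The signals of 211143_x_at were 58.4 and 113.5, at least 1.70-fold higher, and those of 210226_at were 15.5 and 34.3, both under the floor. The 2 probe sets at or above the floor thus had log2 differences of -0.56 and 0.96, on opposite sides of 0 and each less than 2 SD of 0.76 from it. The suffix _x_at of both marks probes that may also match other sequences.

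**Figure D2:**
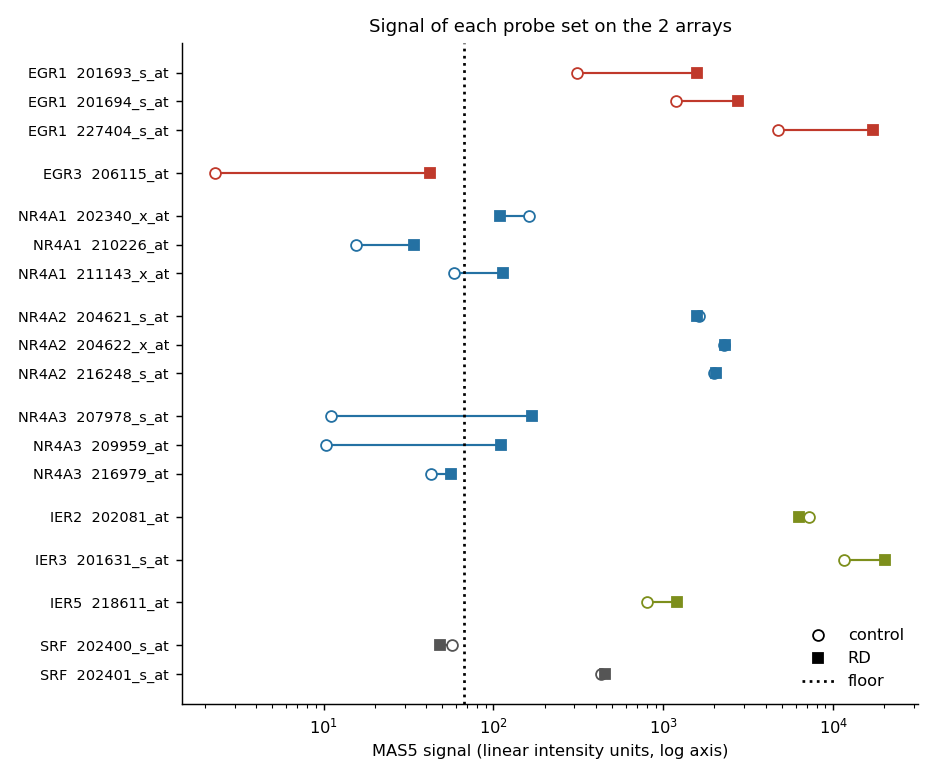
MAS5 signal of each of the 18 probe sets in control (open circles) and in RD (filled squares), joined by a line, on a log axis with the floor of 66.9 dotted (red EGR, blue NR4A, green IER, grey SRF). The squares of all 3 EGR1 probe sets lie to the right of their circles, those of NR4A2 lie on them, and 2 probe sets of NR4A3 cross the floor.

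Among the IER genes, IER3 (IEX-1), whose product acts in cell survival and ERK signalling, had the highest fold. Its signal was 11577 in control and 20169.8 in RD, a 1.74-fold difference that did not reach 2-fold. IER5, which encodes a nuclear regulator linked to heat shock factor 1, read 803.6 and 1208.3, a 1.504-fold difference. IER2 read 7224.1 and 6294, a ratio of 0.871. Each of these genes has 1 probe set here, so no scatter of its own could be measured. That of IER3 (201631_s_at) carries the suffix _s_at. Against the SD of 0.34, the log2 differences were 0.80 for IER3, 0.59 for IER5 and -0.20 for IER2. IER2 was within 1 SD of 0, and the other two were between 1 and 3 SD above it.

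SRF itself was close to equal in both conditions. Its brightest probe set (202401_s_at) read 430.2 in control and 455.4 in RD, a ratio of 1.06. The other (202400_s_at) read 57.3 and 48.4, under the floor on both arrays. The log2 difference of 0.08 was within the SD between probe sets of a gene. EGR1 and SRF both hold 2 CArG boxes in the windows shown above, and their RD signals were 3.59-fold and 1.06-fold those of control.

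Counted as genes, 7 of the 9 members with a probe set reached the floor. Of these, 1 was counted as higher (EGR1), none as lower, and 6 differed less than 2-fold. Over all 12818 genes at the floor, 12.1% were counted as higher and 13.3% as lower. The share among the 7 members, 14.3%, was therefore near the background and is no result about the group. The median log2 difference of the 7 was 0.08, against -0.0022 over all genes. At 1.5-fold, IER3 and IER5 joined EGR1, with 22.8% of all genes counted as higher and 24.7% as lower, and IER5 (1.504-fold) lay just past that limit. Counted as probe sets, 5 of the 14 that reached the floor had a 2-fold higher RD signal or more as deposited, 3 of EGR1 and 2 of NR4A3, against 13.4% of 24934 single-gene probe sets. Both NR4A3 probe sets reached the floor on the RD array only, so their direction was fixed by the filter. One of them stayed under 2-fold at its bound, and the probe sets of a gene share their target.

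**Figure D3:**
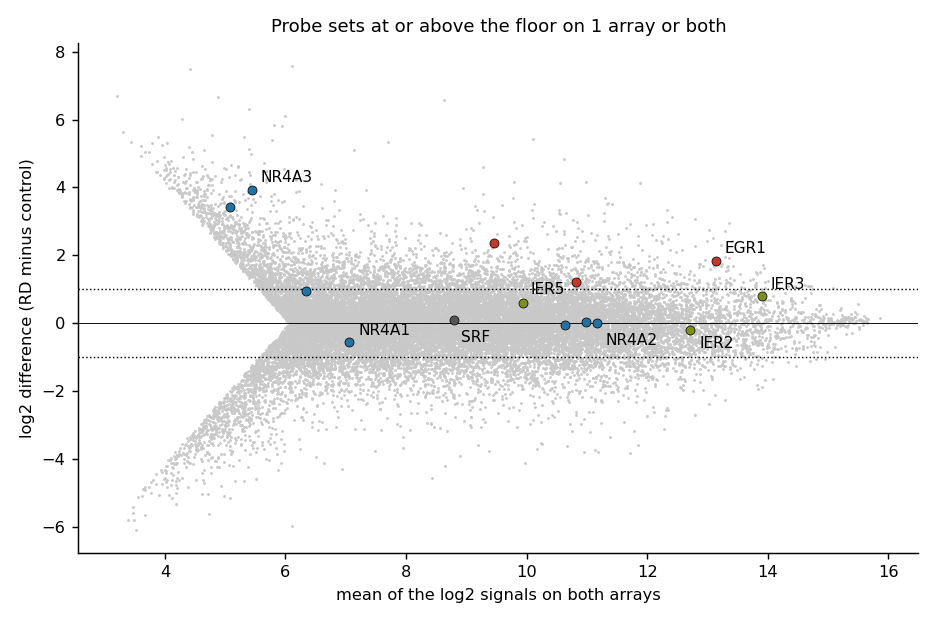
Log2 difference (RD minus control, vertical) against the mean of both log2 signals (horizontal) for all single-gene probe sets at or above the floor (grey), with the 14 probe sets of the members in colour (red EGR1, blue NR4A, green IER, grey SRF) and 2-fold dotted. The name stands beside the brightest probe set of a gene drawn. The NR4A3 points lie in the wide left part of the cloud, where 1 signal is under the floor, and the 3 red EGR1 points lie above the upper dotted line at medium to high signals.

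The genes whose pair of signals lay nearest to that of EGR1 on the log2 scale, among those reaching the 75th percentile, were FKBP11, MAFF and SERP1. FKBP11 read 4943.3 in control and 15969.6 in RD, and its distance from EGR1 was 0.11 log2 units. MAFF read 5312.2 and 17849.6 at a distance of 0.17, and SERP1 read 5082.1 and 19698.6 at a distance of 0.23. Likeness over 2 arrays is a likeness of 2 values only.

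On a list of other immediate early and early response genes, those with large differences were mostly higher in RD. Of 40 genes on this list, 38 had a probe set and 36 reached the floor. Of these 36, 14 (38.9%) were counted as higher and 1 (2.78%) as lower, against 12.1% and 13.3% of all genes, and their median log2 difference was 0.59. FOS, the partner of JUN in AP-1, read 83.5 in control and 617.6 in RD (7.40-fold higher). FOSB, a relative of FOS, read 15 and 209.2 and was at least 3.13-fold higher. FOSB reached the floor on the RD array only, so its direction was fixed by that filter. It was not counted with the floor at the 75th percentile. ATF3, a stress-inducible member of the ATF/CREB family, read 812.5 and 9306 (11.5-fold higher), and all 3 of its probe sets were at least 2-fold higher. Of these, 1554420_at reached the floor on the RD array only, which fixed its direction. TRIB1, which encodes a pseudokinase, read 876.7 and 7042.6 (8.03-fold higher). RHOB, a small GTPase gene, was the one on this list counted as lower, at 868.7 and 383.6 (2.26-fold lower). It was not counted with the median over its probe sets. The list was drawn up with earlier results of these arrays known, so its direction is a description. That direction also depends on which genes were put on the list. CCN1 and CCN2, at 0.318 and 0.608 of control, were put on the list of SRF targets below and not on this one.

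The regulators of SRF and of the EGR and NR4A proteins differed less than 2-fold in most cases. Among 14 SRF cofactors and upstream kinases at the floor, none was counted as higher and 2 (14.3%) as lower, with a median log2 difference of 0.01. The share of lower calls was near the 13.3% of all genes, and 12.1% of all genes were counted as higher. The ternary complex factor genes ELK1, ELK3 and ELK4 stood at 1.10, 1.17 and 1.29 of control by their brightest probe sets. A dim probe set of ELK4 (205994_at) read 28.6 in control and 136.8 in RD, at least 2.04-fold higher. The myocardin-related genes MRTFA and MRTFB stood at 0.912 and 0.627, and a dim probe set of MRTFA (1555763_x_at) read 101.6 and 10.4, at least 1.52-fold lower. RPS6KA4 (MSK2), a kinase below ERK and p38, was 4.16-fold lower, from 308.8 to 74.3. Its other probe set read 72.8 and 9, at least 1.09-fold lower. That probe set reached the floor on the control array only, so its direction was fixed by the filter. RPS6KA4 did not reach a floor set at the 75th percentile. MAPK3 (ERK1) was 2.04-fold lower, from 615 to 301.2, by its only probe set, which carries a shared-sequence suffix. With the offset of 17.1 added to each signal it was 1.99-fold lower and no longer counted. Among 13 partners of the EGR and NR4A proteins at the floor, none was counted as higher and 1 (7.69%) as lower, against 12.1% and 13.3% of all genes, with a median of -0.04. Single probe sets at the floor differed more as deposited. For CREM 1 of 6 had a log2 difference of 3.43, for MEF2D 1 of 3 had 1.87, and for MEF2A 1 of 4 had -1.27. The corepressor genes NAB1 and NAB2 stood at 0.815 and 0.705 of control, and CREB1 stood at 1.42. MEF2C, of the MEF2 family that binds the NR4A1 promoter, was 2.41-fold lower, from 278.4 to 115.7, and its other probe set at the floor had a log2 difference of -0.37. It was not counted with the floor at the 75th percentile or by probe sets without a shared-sequence suffix.

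Cytoskeletal and adhesion targets of SRF had mostly lower signals in RD-treated cells. Of 15 at the floor, 13 had a lower signal in RD, 5 (33.3%) were counted as lower and 1 (6.67%) as higher, and the median log2 difference was -0.72. Over all genes 13.3% were counted as lower and 12.1% as higher, and 49.9% had a higher signal in RD. CCN1 (CYR61), a matricellular gene, read 21107 in control and 6703.5 in RD (3.15-fold lower), and both of its probe sets were at least 2-fold lower. TAGLN2 (transgelin 2) read 5855.7 and 1808.9 (3.24-fold lower), also by both probe sets. TPM1, a tropomyosin gene, was 2.28-fold lower by its brightest probe set, and 4 of its 5 probe sets at the floor were at least 2-fold lower. Of these, 206117_at reached the floor on the control array only, which fixed its direction. VCL, the vinculin gene, was 3.45-fold lower by its brightest probe set (4609.8 and 1334.5), but its other probe set read 13 and 77.1, at least 1.15-fold higher. With the median over its probe sets VCL was not counted. MYH9, named here only because it completes the 5, was 2.21-fold lower. ACTA2, the one counted as higher, read 63 and 133.1, which is at least 1.99-fold and so just under 2-fold at its bound. The 1.5-fold setting counted 9 of the 15 as lower, against 24.7% of all genes, and the 3-fold setting counted 3, against 6.05% of all genes.

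**Figure D4:**
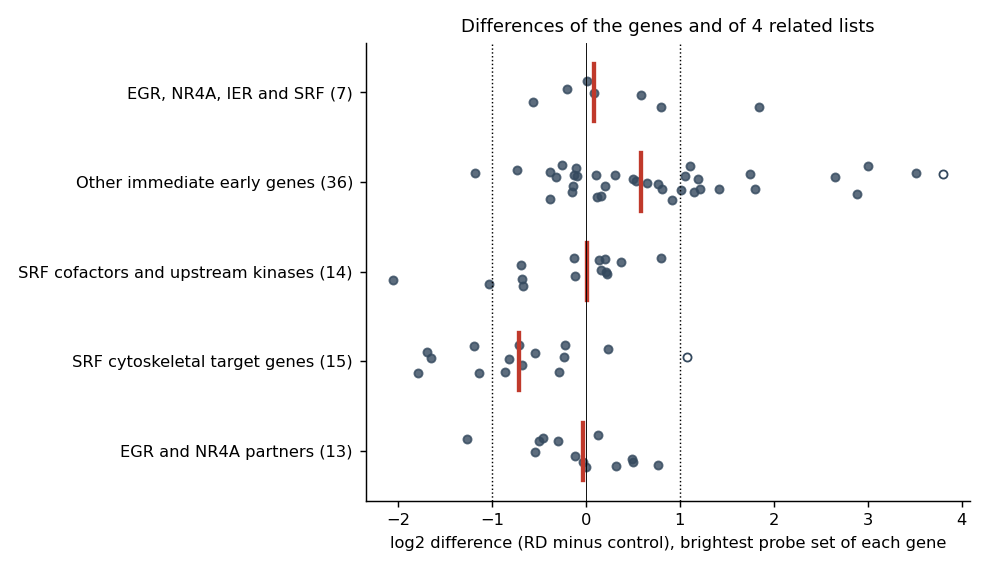
Log2 difference (RD minus control) of every gene that reached the floor, by its brightest probe set, for the members and for 4 related lists, with the number of genes in brackets, medians as red bars and 2-fold dotted. Open circles have 1 signal under the floor, drawn at the deposited ratio. The medians are 0.08 for the members, 0.59 for the other immediate early genes, 0.01 for the SRF cofactors and kinases, -0.72 for the SRF cytoskeletal targets and -0.04 for the EGR and NR4A partners.

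The same counts were made for all genes with a CArG box, a core of the cAMP response element or the second EGR form in a window. Of 160 genes at the floor with a CArG box in a window, 11.9% were counted as higher and 15.0% as lower, and their median log2 difference was -0.08. Of 4108 with the core of the cAMP response element, 11.3% were higher and 10.5% lower, with a median of 0.06. Of 1069 with GCGGGGGCG on either strand, 11.6% were higher and 11.1% lower, with a median of -0.05. Among all 10415 genes at the floor that have a window, the shares were 11.8% and 13.0%. These windows cover 300 bases, and elements farther from the start were not searched.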

How the data were processed

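The deposited values of both arrays are linear intensities, made with MAS5 per the labels, with the MAS5 version and scaling target not given in the sources used here. MAS5 subtracts mismatch signals, so low signals are noisy. From the 54613 probe sets, the log2 signal of control was subtracted from that of RD, without an offset or another scaling. Of these probe sets 41091 had 1 gene in the platform annotation, 1801 had several and were left out, and 11721 were not named. RefSeq (GRCh38.p14) changed 0 symbols. No p-value was computed, since each condition has 1 array. Their number limits the precision. The text names all members, up to 4 genes in each direction of a list, fixed cofactors and partners, and the 3 genes nearest to EGR1. MYH9 was named after its values were seen. Members and lists were chosen with earlier results of these data known. Alternatives were 2 scalings, an offset of 17.1 (the 25th percentile), 2 choices of probe set, 3 settings of the floor, and limits of 1.5-fold and 3-fold. Computations ran in Python 3.11.15 with pandas 2.3.3 and numpy 2.4.6, and plots were drawn with matplotlib 3.10.9.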

Additional observations from a re-analysis of the deposited data

How the results depend on the processing

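No paired analysis was possible because each condition has 1 array, and for the same reason no replicate could be left out. The number of members counted as higher was 1 under centring, quantile normalization, the offset, the raised floor, the floor at the 75th percentile and 3-fold. It was 2 with the median over probe sets (EGR1 and NR4A3), 2 without a floor (EGR1 and EGR3), 3 at 1.5-fold (EGR1, IER3 and IER5) and 0 with probe sets free of shared-sequence suffixes, where EGR1 has none and 2 members were left. Over all genes, the share counted as higher was 11.8% with the median over probe sets, 16.8% without a floor and 12.7% without such suffixes. It was 22.8% at 1.5-fold, 5.21% at 3-fold and between 8.24% and 11.5% under the remaining settings. The number of members counted as lower was 0 under all 10 settings, against 6.05% (3-fold) to 24.7% (1.5-fold) of all genes. The median log2 difference of the members, 0.08, became 0.70 with the median over probe sets, where 8 members entered, and otherwise stayed between 0.04 and 0.39. The 7 members at the floor had both signals above it, so the settings of the floor could not move their log2 differences. Of the 50 values of these members, which include such unmoved ones, 49 moved by less than the SD between probe sets of a gene. The exception among them was NR4A1, from -0.56 to 0.96 with the median over its probe sets. NR4A3 and EGR3 are not among the 50 values. The median over the NR4A3 probe sets was 3.43, against 0.39 for its brightest, a larger move than that of NR4A1. Each probe set in turn, a setting chosen after seeing the data, moved EGR1 between 1.21 and 2.36. Of the other immediate early genes, 7 to 18 were counted as higher, of the SRF cytoskeletal targets, 3 to 9 as lower, of the SRF cofactors and kinases, 1 to 5 as lower, and of the EGR and NR4A partners, 0 to 2 as lower. Over all genes, the share counted as higher ran from 5.21% to 22.8% and the share counted as lower from 6.05% to 24.7%. The median of the cytoskeletal targets stayed between -0.82 and -0.67. Signals under the floor limit what can be said of EGR3, NR4A1 and NR4A3.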
